A study of Homo sapiens with 6 samples.

Results

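Promoters of 10 response genes were examined in chromatin from MRC5 cells: the Tribbles genes TRIB1, TRIB2 and TRIB3, the immediate early response genes IER2, IER3 and IER5, and BTG2, MCL1, RHOB and ZFP36. The 10 genes were chosen by name with the fold changes of NuMA ChIP over IgG ChIP in this promoter table already known, in which TRIB1 stood among the higher promoters. The values of that comparison are therefore given here as a description, with no p-value for these genes, and nothing is read from how many of them passed. The table gives Ensembl identifiers without symbols, and so each window took the symbol of a RefSeq gene that starts on its strand, at most 1000 bp from its centre. Of 19957 windows, 16958 received a symbol, and 9 of the 10 genes had a window by this rule. TRIB3 had none by position, although a window without a symbol upstream of it may be its row in the authors' annotation, and the IER2 window held almost no counts, so 8 genes were compared.

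NuMA, a coiled-coil protein of the nucleus, gathers microtubules at the spindle poles during mitosis, and the study asked where in the genome it binds. MRC5 is a human lung fibroblast line, labelled wild type, and the labels give no treatment. The 6 libraries are 2 of NuMA ChIP (antibody to NuMA, labelled TDIF), 2 of IgG ChIP (non-specific antibody), 1 input of sheared chromatin from the NuMA arm and 1 input from the IgG arm. Promoter counts summed to between 366594 and 1080879 per library, so that a single count is worth 0.925 to 2.73 CPM (the count divided by the library's promoter total, scaled to 1e+06). The labels do not say that replicates came from separate cultures, so p-values may measure only technical spread. Counts of promoter DNA do not measure expression, so the cell type could not be checked against marker genes. With no library depleted of NuMA among the 6, the specificity of the antibody was not tested either.

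Immediate early genes are kept ready for rapid transcription and switched on within minutes by growth factors, stress or DNA damage, without new protein synthesis. Products of early and stress response genes often limit the response that induced them. Tribbles pseudokinases steer substrates to a ubiquitin ligase, ZFP36 shortens the life of AU-rich messenger RNAs, and BTG2 recruits messenger RNA deadenylation and slows proliferation. Fibroblasts returning from quiescence to growth are a classical setting in which immediate early genes were found.

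Parts of 3 promoters are shown first, because they frame the results that follow. RHOB is the gene other than TRIB1 called higher in NuMA ChIP than in input, ZFP36 is one whose NuMA libraries differed most from each other, and the stretch between IER2 and its neighbour STX10 shows how close the starts of these genes lie, IER2 being the gene with almost no counts. The sequences are from RefSeq on build GRCh38.p14, plus strand, and end at the base before the annotated start. RHOB covers chr2:20446824-20447073, ZFP36 covers chr19:39406597-39406846 and the IER2 stretch covers chr19:13150376-13150410. Capitals mark CCAAT boxes (CCAAT), GC boxes (GGGCGG) and ETS cores (CCGGAAG), each searched on both strands.
RHOB: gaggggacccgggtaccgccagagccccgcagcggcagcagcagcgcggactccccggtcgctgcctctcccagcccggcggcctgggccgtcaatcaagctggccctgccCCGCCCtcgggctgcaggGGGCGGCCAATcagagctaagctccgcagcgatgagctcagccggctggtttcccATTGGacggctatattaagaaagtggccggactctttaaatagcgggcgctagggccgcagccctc
ZFP36: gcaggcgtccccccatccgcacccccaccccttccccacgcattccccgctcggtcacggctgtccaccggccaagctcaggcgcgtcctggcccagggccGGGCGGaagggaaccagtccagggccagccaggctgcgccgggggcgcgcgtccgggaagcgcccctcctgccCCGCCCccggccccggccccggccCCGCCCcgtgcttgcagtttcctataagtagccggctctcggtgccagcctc
IER2 to STX10: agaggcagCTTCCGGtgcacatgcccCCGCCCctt

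RHOB has 2 CCAAT boxes, the first of them directly beside a GC box, while ZFP36 has 3 GC boxes and no CCAAT box in these 250 bases. The 35 bases between IER2 and STX10 are all that separates 2 genes read in opposite directions, and they hold 1 ETS core and 1 GC box. Promoter sequences were used for 7 of the 10 genes (IER5, BTG2, TRIB2, RHOB, IER2, ZFP36 and TRIB3). The search for the genes left out chromosome 8, where TRIB1 lies. Over the 250 bases before the first listed start, GC content was 68.8% in RHOB, 69.6% in IER2, 70.4% in IER5, 74.8% in BTG2, 76.4% in ZFP36, 76.8% in TRIB2 and 78.8% in TRIB3. The median of all 35116 promoters in the RefSeq table was 58.0%. CpG dinucleotides numbered 22 to 33 per promoter, against a median of 11. Since sequences were used for only 70.0% of the genes, a statement on the base composition of the whole group is void.

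GC boxes were found in 6 of the 7 promoters, and in 42.6% of all promoters. CCAAT boxes were found in 3 (IER5, BTG2 and RHOB), and in 32.0% of all. An ETS core occurred in IER2 and TRIB3, and in 8.52% of all. The short form of the cyclic AMP response element (TGACG) occurred in 3 (BTG2, RHOB and IER2), and in 21.2% of all. No match to the full cyclic AMP response element (TGACGTCA, 1.65% of all), the AP-1 site (TGANTCA, 6.57%), the TATA box core (TATAAA, 10.7%), the EGR site (GCGTGGGCG, 0.72%), the amino acid response element (TGATGNAA, 3.14%), the CArG box bound by serum response factor (1.16%) or the kappaB site (9.96%) lay in these 250 bases of any of the 7. The short element also lies within the full one. For the TATA box only the exact letters TATAAA were searched, and near variants do not match them. Such variants are TATATAAG in IER5 and TATAAG in ZFP36. No match therefore does not show that a promoter lacks a TATA box. A match describes letters only and locates no bound factor.

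IER2, which encodes a small nuclear regulator of transcription, had 1 count in the IgG input, 2 in IgG ChIP replicate 2 and none in the other libraries. Its window (19, 13149414 to 13151414) shares 1971 of 2001 bp with that of STX10 (19, 13149384 to 13151384), a syntaxin gene of the trans-Golgi network, whose start lies on the opposite strand. The STX10 window had 5 counts in the IgG input and none elsewhere. Both inputs were as empty as the ChIP libraries here, and only 30 bp of each window belong to it alone. The same held across the table: the 1233 windows sharing more than 1900 bp with another had a median of 2 counts over all libraries and 33.5% of them had none, while the 16216 windows that overlap no other had a median of 224 and 1.0% of them had none. How reads in overlapping windows were assigned is not given in the sources used here. A count of 0 in the NuMA libraries allows up to 2.78 and 4.52 CPM (3 counts), and no fold is given for IER2.

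**Figure D1:**
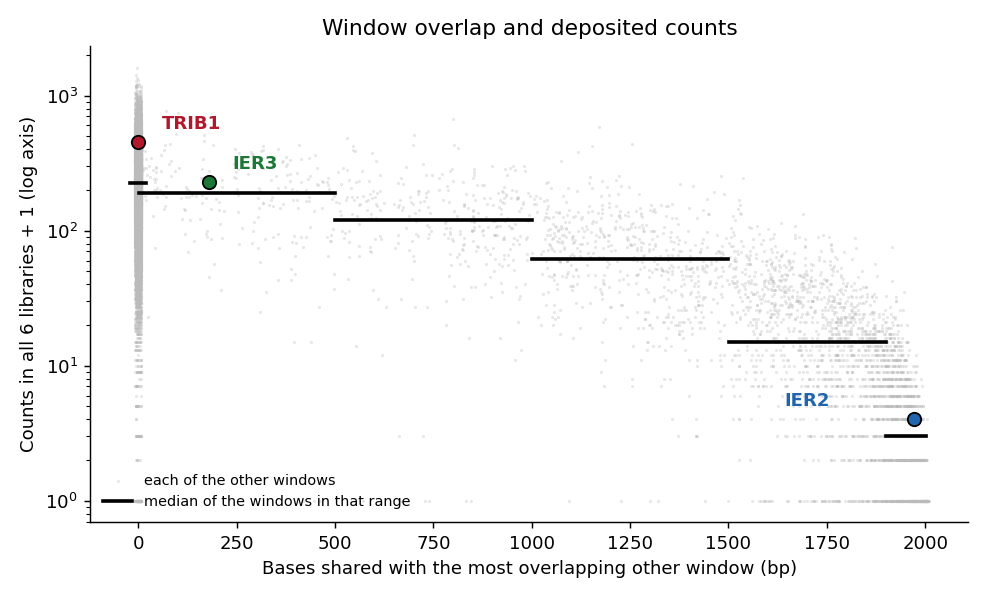
Counts of each promoter window summed over the 6 libraries plus 1 (log axis) against the number of bases it shares with the window it overlaps most, with medians by range of overlap as black lines. Counts fall as the shared length grows, from a median of 224 with no overlap to 2 beyond 1900 bp, and IER2 lies at that end while IER3 shares only 180 bp and TRIB1 none.

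Among the Tribbles genes, TRIB1 carried the highest NuMA signal of the whole group. TRIB1 encodes a pseudokinase that brings the transcription factor C/EBP alpha to the ubiquitin ligase COP1 for degradation. Its window (8, 125429320 to 125431320) had 163 and 151 CPM in NuMA ChIP replicates 1 and 2, 45.4 and 32.7 CPM in IgG ChIP replicates 1 and 2, 74.0 CPM in the NuMA input and 101 CPM in the IgG input. The 3 kinds of library did not overlap: both NuMA libraries lay above both inputs, and both inputs above both IgG libraries. The low IgG values rest on 28 and 12 counts, and the 95% exact (Clopper-Pearson) interval of the second is 16.9 to 57.2 CPM, which covers counting error only, since PCR reads are not independent molecules.

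The mean CPM at TRIB1 was 157 ± 8.68 in NuMA ChIP and 39.1 ± 8.98 in IgG ChIP (SD, n = 2 each), and the fitted NuMA over IgG log2 fold change was 2.15 ± 0.45 (SE), a 4.44-fold difference. It ranged from 1.56 to 3.43 over the 14 other settings tried. It stood at the 99.3th percentile of this fold change over all tested windows, as a description. Against the mean of both inputs, NuMA ChIP was higher by 1.32 ± 0.44 (SE, adjusted p = 0.0135). That call was lost under 7 of 15 other settings, and it shares its NuMA libraries with the comparison known beforehand. IgG ChIP over input was -0.98 ± 0.49 (SE, adjusted p = 0.302), which did not pass.

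TRIB2, a close relative that acts on the same class of substrates, had no such difference. Its window (2, 12715888 to 12717888) had 49.0 and 69.3 CPM in NuMA ChIP, 48.7 and 65.5 CPM in IgG ChIP, 65.8 CPM in the NuMA input and 49.3 CPM in the IgG input. All 3 kinds of library covered the same range, and replicate 2 was the higher in both ChIP groups. The fitted log2 fold change was 0.22 ± 0.42 (SE) for NuMA over IgG and 0.48 ± 0.42 (SE, adjusted p = 0.409) for NuMA over input. The NuMA over IgG value turned to -0.37 when only windows with at least 30 counts in every library of a compared group were kept. TRIB3, a stress-induced member of the family that binds AKT, had no window within 1000 bp of its RefSeq starts. The nearest window on its strand (20, 361834 to 363834) is centred 17926 bp from the RefSeq start and received no symbol. It may be the TRIB3 row, with the start taken from another annotation, which the tables used here do not settle. It had 25.0 and 28.6 CPM in NuMA ChIP, 68.2 and 81.8 CPM in IgG ChIP, 75.4 CPM in the NuMA input and 88.5 CPM in the IgG input. Both NuMA libraries lay below the other 4, unlike at TRIB1, but low NuMA CPM is common. At 47.4% of all windows tested against input both NuMA libraries lay below both inputs. The median window had 22.2 and 31.6 CPM in NuMA ChIP replicates 1 and 2. The values of this window are not counted among the genes.

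IER5 and IER3 lay apart from each other. IER5, which encodes a nuclear protein that takes part in the heat shock response, has its window at 1, 181087711 to 181089711. It had 71.2 and 81.3 CPM in NuMA ChIP, 42.2 and 49.1 CPM in IgG ChIP, 68.5 CPM in the NuMA input and 56.9 CPM in the IgG input. As at TRIB1, NuMA lay above both inputs and IgG below both, but by less. The log2 fold change was 0.91 ± 0.41 (SE) for NuMA over IgG and 0.73 ± 0.41 (SE, adjusted p = 0.167) for NuMA over input.

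IER3, which encodes a stress-inducible regulator of survival and ERK signalling, has its window at 6, 30743555 to 30745555. It was the member where NuMA ChIP was lowest among those that could be compared, with 31.5 and 33.1 CPM. IgG ChIP had 42.2 and 49.1 CPM, the NuMA input 98.7 CPM and the IgG input 69.5 CPM. Both ChIP groups lay below both inputs, and NuMA below IgG. The fitted log2 fold change was -0.90 ± 0.44 (SE, adjusted p = 0.108) for NuMA over input, -0.75 ± 0.45 (SE, adjusted p = 0.404) for IgG over input and -0.32 ± 0.53 (SE) for NuMA over IgG, the last turning to 1.0 when libraries were scaled on signal far from the TSS. NuMA over input at IER3 passed the threshold under 5 of 14 alternatives, with adjusted p from 0.0167 to 0.446. The window shares 180 bp with that of FLOT1, which encodes a membrane raft protein.

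**Figure D2:**
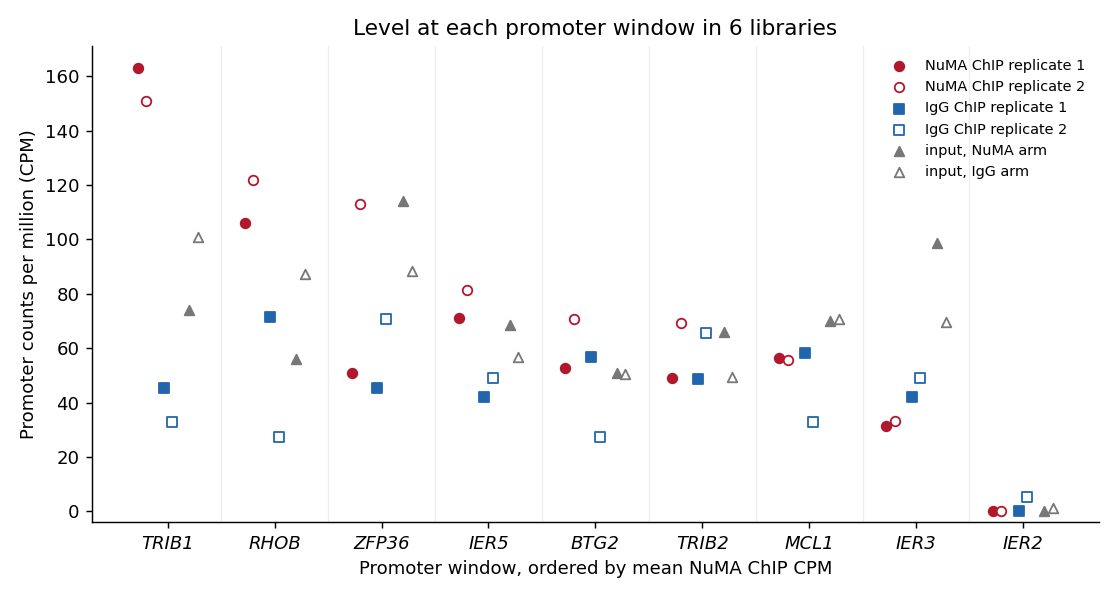
Promoter CPM in each of the 6 libraries for the 9 windows found, ordered by mean NuMA ChIP level; filled and open symbols are replicates 1 and 2, or the NuMA and IgG inputs. NuMA ChIP stands clear of the other libraries at TRIB1 (163 and 151 CPM) and RHOB (106 and 122 CPM), lies lowest of all at IER3 (31.5 and 33.1 CPM), and differs most between its replicates at ZFP36 (50.9 and 113 CPM).

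RHOB followed TRIB1 in order. RHOB encodes a small GTPase that sits on endosomes and is itself an immediate early gene. Its window (2, 20446073 to 20448073) had 106 and 122 CPM in NuMA ChIP, 71.4 and 27.3 CPM in IgG ChIP, 56.2 CPM in the NuMA input and 87.2 CPM in the IgG input. Both NuMA libraries lay above the other 4, while the IgG libraries differed 2.62-fold from each other and straddled the lower input. The fitted log2 fold change was 1.31 ± 0.41 (SE) for NuMA over IgG, 1.15 ± 0.41 (SE, adjusted p = 0.0237) for NuMA over input and -0.29 ± 0.45 (SE, adjusted p = 0.775) for IgG over input. Leaving out IgG replicate 2, which had 10 counts here, gave 0.91 for NuMA over IgG, and leaving out IgG replicate 1 gave 2.43. The RHOB call over input was lost under 10 of 15 other settings, and it too shares its NuMA libraries with the comparison known beforehand.

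The remaining promoters were not called in any of the 3 comparisons. BTG2, an antiproliferative gene (1, 203304490 to 203306490), had 52.7 and 70.8 CPM in NuMA ChIP, 56.8 and 27.3 CPM in IgG ChIP, 50.7 CPM in the NuMA input and 50.5 CPM in the IgG input. NuMA replicate 1 fell between the IgG libraries, and both NuMA libraries lay just above both inputs. The log2 fold change was 0.65 ± 0.44 (SE) for NuMA over IgG and 0.72 ± 0.43 (SE, adjusted p = 0.203) for NuMA over input. Leaving out IgG replicate 1 moved the NuMA over IgG value of BTG2 to 1.54, and leaving out IgG replicate 2 to 0.34. MCL1, a short-lived inhibitor of apoptosis in the BCL2 family (1, 150578739 to 150580739), had 56.4 and 55.7 CPM in NuMA ChIP, 58.4 and 32.7 CPM in IgG ChIP, 69.9 CPM in the NuMA input and 70.8 CPM in the IgG input. The NuMA libraries agreed closely and lay between the IgG libraries and below both inputs. The log2 fold change was 0.44 ± 0.44 (SE) for NuMA over IgG and 0.13 ± 0.42 (SE, adjusted p = 0.844) for NuMA over input. Without IgG replicate 1 the MCL1 value over IgG was 1.16.

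ZFP36, which encodes tristetraprolin (19, 39405812 to 39407812), had the highest mean input level of the group, 101 CPM. NuMA ChIP had 50.9 and 113 CPM, IgG ChIP 45.4 and 70.9 CPM, the NuMA input 114 CPM and the IgG input 88.5 CPM. The 2 NuMA libraries differed 2.22-fold, one lying with IgG and the other with the inputs. Their intervals, 38.3 to 66.2 and 88.8 to 142 CPM (95% exact, counting error only), do not overlap. The log2 fold change was 0.63 ± 0.41 (SE) for NuMA over IgG and 0.11 ± 0.41 (SE, adjusted p = 0.87) for NuMA over input, the latter turning to -0.41 without NuMA replicate 2 and to -0.32 with total-count scaling.

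At MCL1 and ZFP36 the fitted value against input is positive although mean CPM was below input (0.797 and 0.81 times). CPM is taken on each library's own total, whereas the fits used TMM scaling, which centres on the typical window. That window had 22.2 and 31.6 CPM in NuMA ChIP (median over all windows), 43.8 and 49.1 CPM in IgG ChIP and 49.3 and 48.0 CPM in the NuMA and IgG inputs. All fold changes are thus relative to other promoters. Without TMM, on total counts, the median of all windows moved by -0.44 for NuMA over input, and MCL1 stood at -0.33.

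Ordered by mean NuMA ChIP level, the genes ran TRIB1 at 157 ± 8.68, RHOB at 114 ± 11.0, ZFP36 at 81.9 ± 43.9, IER5 at 76.3 ± 7.11, BTG2 at 61.7 ± 12.7, TRIB2 at 59.1 ± 14.3, MCL1 at 56.1 ± 0.518 and IER3 at 32.3 ± 1.18 CPM (SD, n = 2 each). All windows have the same length of 2001 bp. TRIB1 lay above RHOB in both libraries, and IER3 below MCL1 in both. The libraries of RHOB and ZFP36 overlapped, as did those of ZFP36 and IER5, of BTG2 and TRIB2, and of TRIB2 and MCL1. Those of IER5 and BTG2 only just did not, at 71.2 against 70.8 CPM. The input order was another: ZFP36 (101 CPM), TRIB1 (87.5), IER3 (84.1), RHOB (71.7), MCL1 (70.3), IER5 (62.7), TRIB2 (57.5) and BTG2 (50.6). TRIB1 was at the 93.7th percentile of all windows in NuMA ChIP, the 40.2th in IgG ChIP and the 85.1th in input, and IER3 at the 54.1th, 48.1th and 82.7th.

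In the comparison that was known when the genes were picked, NuMA ChIP over IgG ChIP, 2 of the 8 tested genes (TRIB1 and RHOB) were called higher and none lower at an adjusted p under 0.05. Of all 15727 windows tested, 16.8% were called higher and 23.9% lower, and nothing is read from the genes' count. At 3 of the 8 (TRIB1, IER5 and RHOB) the lower NuMA library exceeded the higher IgG library in CPM, as at 32.0% of tested windows. The median log2 fold change was 0.64 over the 8 genes and -0.04 over all windows tested. Scaling on signal far from the TSS turned the balance over all windows, to 7562 higher and 429 lower.

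In NuMA ChIP over input, 2 of 8 were called higher (TRIB1 and RHOB), none lower, and 6 did not pass. Of all 17226 windows tested, 17.2% were called higher and 11.9% lower, so with 8 genes the share called higher is near that background. With total-count scaling the balance over all windows turned, to 1852 higher and 3313 lower, and library sizes over tested windows gave 2369 and 2770. Both NuMA libraries lay above both inputs at 4 of 8 genes (TRIB1, IER5, BTG2 and RHOB; 24.8% of all windows) and below both at 2 of 8 (IER3 and MCL1; 47.4% of all windows). The median log2 fold change was 0.60 over the 8 genes and 0.03 over all windows. This comparison shares its NuMA libraries with the one known beforehand and is no independent support. The TRIB1 call was lost under 7 of 15 alternatives (adjusted p from 0.000591 to 0.181) and the RHOB call under 10 of 15 (0.0068 to 0.291), with the direction kept in each. Both calls were lost without NuMA ChIP replicate 1 (adjusted p = 0.101 for TRIB1 and 0.121 for RHOB), IgG ChIP replicate 1 (0.075 and 0.0569), the NuMA input (0.181 and 0.291) or the IgG input (0.0609 and 0.0612). Where 1 library of a group was left, its spread was taken from the other groups. A DESeq2 test called neither of the 2, at adjusted p = 0.0636 and 0.192.

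In IgG ChIP over input, none of the 8 genes was called by edgeR, and 1 (TRIB1) had an unadjusted p under 0.05, as did 2722 of all 17226 windows, while a DESeq2 test also called none. Across all windows 0.302% were called, in either direction. At 5 of the 8 (TRIB1, IER3, IER5, MCL1 and ZFP36) both IgG libraries lay below both inputs, which held for 29.8% of all windows. The fitted value was below 0 at 7 of 8, TRIB2 being the exception, with a median of -0.39 against 0.13 over all windows. The values for BTG2 and RHOB changed sign without IgG replicate 2, to 0.37 and 0.23.

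**Figure D3:**
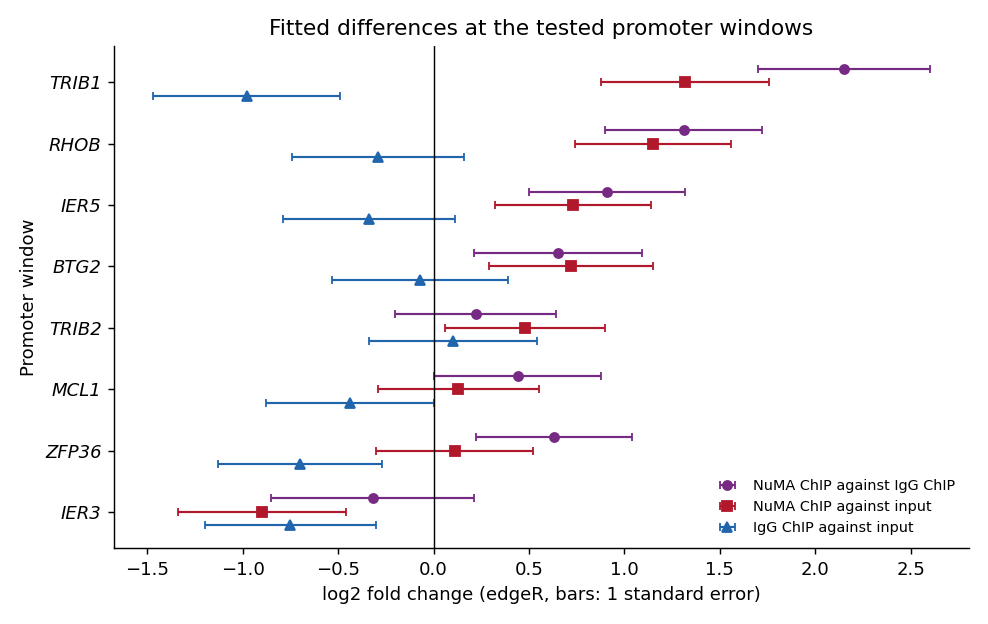
Fitted log2 fold change of each of the 8 tested promoters in 3 comparisons (points) with 1 standard error (bars). TRIB1 combines the highest NuMA over input value (1.32) with the lowest IgG over input value (-0.98), whereas at IER3 both ChIP groups lie below input (-0.90 and -0.75). No IgG over input value passed the threshold, nor did NuMA over input at IER3.

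Scaling moved all values together. With libraries scaled on the summed signal far from the TSS, the median NuMA over IgG value of all windows shifted by 1.30 and 7 of the 8 genes were called higher, along with 7562 of all 15727 windows, the exception being IER3 at 1.0. On the same scaling, TRIB1 stood at 3.43 and RHOB at 2.54.

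**Figure D4:**
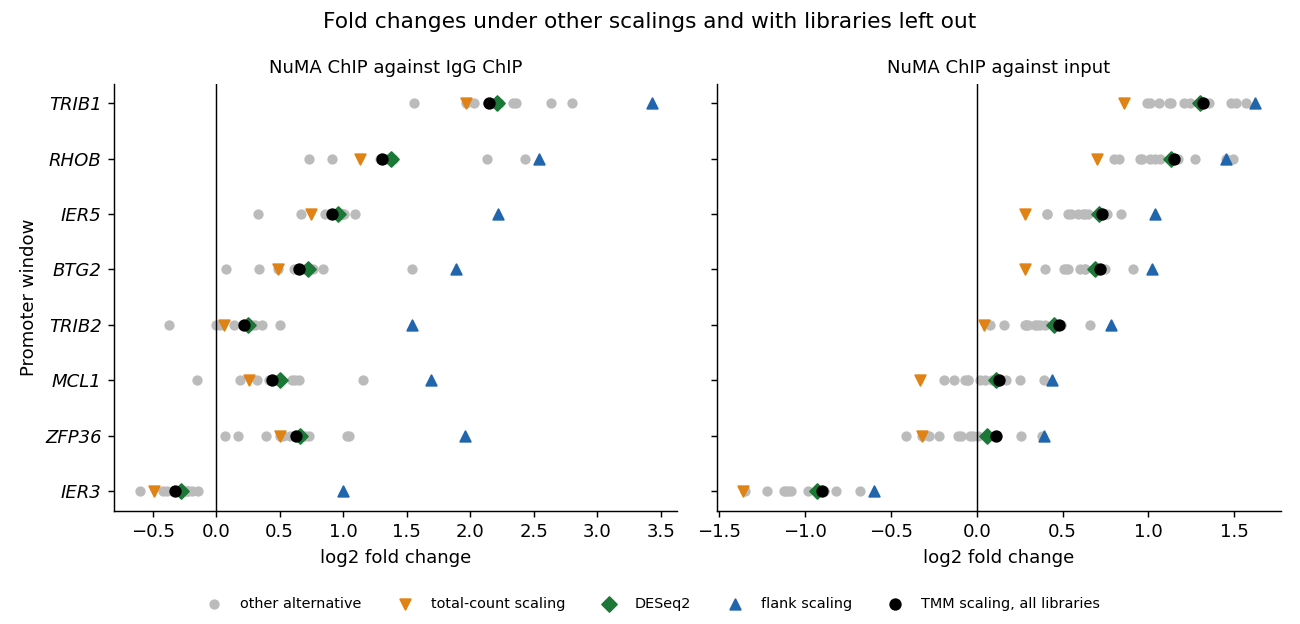
Log2 fold change of each promoter under TMM scaling (black) and under the alternatives, for NuMA over IgG on the left and NuMA over input on the right; coloured symbols are DESeq2 and other scalings (flank, on signal far from the TSS) and grey points other alternatives, among them each library left out. TRIB1 lies between 1.56 and 3.43 on the left and between 0.86 and 1.62 on the right, while MCL1 and ZFP36 fall on both sides of 0 on the right.

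The 3 windows most like TRIB1 over the 6 libraries, by Euclidean distance in log2(CPM + 1), were those of FAM193A (distance 0.29), TBC1D24 (0.36) and CTXN1 (0.39). FAM193A had 159 and 142 CPM in NuMA ChIP, 45.4 and 35.5 CPM in IgG ChIP, 87.7 CPM in the NuMA input and 98.6 CPM in the IgG input. Within the group RHOB was nearest to TRIB1, at 1.07, and IER3 farthest of the genes that could be compared, at 3.30, with TRIB2 at 2.49.

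Relatives of these genes, their partners and other early genes were looked at in the same way. In NuMA over input, 17.2% of all windows tested were called higher and 11.9% lower, with a median of 0.03. Genes named from each list are its highest or lowest by this same fold change. Their adjusted p-values are therefore no independent support, and their values under other settings are not given here. Of 15 tested relatives (paralogues such as other BTG, TOB, ZFP36 and BCL2 genes), NuMA over input was higher in 1, lower in 2 and not called in 12, with a median of 0.44. BTG4, an oocyte relative of BTG2, rose by 2.63 ± 0.44 (SE, adjusted p = 1.11e-06), from 23.3 CPM in the NuMA input and 34.1 CPM in the IgG input to 134 and 120 CPM in NuMA ChIP, while TOB1, another antiproliferative relative, fell by 2.27 ± 0.49 (SE, adjusted p = 0.000117).

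Of 27 tested partners (substrates, regulators and co-factors), 3 were higher, 2 lower and 22 not called in NuMA over input, with a median of 0.31. The shares of all windows called higher and lower were 17.2% and 11.9%, as above, with a median of 0.03. CEBPA, which encodes the substrate that TRIB1 and TRIB2 are best known for, rose by 2.65 ± 0.57 (SE, adjusted p = 0.000121), with 368 and 271 CPM in NuMA ChIP against 49.3 CPM in the NuMA input and 99.8 CPM in the IgG input. Of 37 other early genes tested, 6 were higher, 2 lower and 29 not called, with a median of 0.50. GADD45G, a growth arrest gene, rose by 2.49 ± 0.46 (SE, adjusted p = 7.27e-06) and PPP1R15A, which reverses the translational arrest of stressed cells, fell by 1.71 ± 0.50 (SE, adjusted p = 0.00435). In NuMA over IgG the counts higher and lower were 3 and 2 of 15 relatives and 7 and 1 of 25 partners. Among 37 early genes they were 14 and 2. Over all windows tested in that comparison, 16.8% were called higher and 23.9% lower. The lists were chosen with earlier results of these data known, so nothing is read from these counts.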

How the data were processed

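ChIP-seq of MRC5 chromatin gave 6 libraries, grouped by their titles. The authors deposited raw counts per promoter window of 2001 bp, and a signal summed over genes around the TSS, in a column headed none per the file headers and read here as unscaled for depth. Per the submitters' processing notes, the tools were MACS2, featureCounts, bedtools and BWA 0.7.17-r1188, on build hg38. The treatment of paired reads, and of reads shared by windows, is not given in the sources used here.

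Windows were named by position with RefSeq (GRCh38.p14), which named 84.97%. Counts were fitted with edgeR 4.0.16 in R 4.3.3: filterByExpr (minimum count 10), TMM factors from the windows kept, and the quasi-likelihood test. Library sizes were the totals over all promoter windows. P-values were adjusted by Benjamini-Hochberg over every tested window, with a threshold of 0.05. NuMA against IgG used 4 libraries. Comparisons with the mean of both inputs used 6, with each lone input taken to be as variable as the ChIP libraries. The residual degrees of freedom were 2. Standard errors come from the fold change and the F statistic. The fits were tested on simulated data, where most changes put into the NuMA comparisons were missed. Alternatives were DESeq2 1.42.0, other scalings and count filters, thinned counts, own inputs, a replicate block and libraries left out. Library sizes over tested windows, each input left out and, against input, leaving out overlapping windows were alternatives chosen after seeing the data.

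The rule for named genes takes the 10 genes (8 of them with a fitted value), besides the 3 windows most like TRIB1 and the extremes of 3 lists, of which 1 is not reported here. The genes and the lists were chosen with earlier results of these data known.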

Additional observations from a re-analysis of the deposited data

How the results depend on the processing

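For NuMA over IgG, given as a description, the number of genes called higher, 2, became 1 with DESeq2, 7 with scaling on signal far from the TSS, 1 with a minimum of 30 counts in every library of a compared group, 1 with each arm set against its own input, 3 with library sizes over tested windows (IER5 added), and 1 to 3 with a library left out. Windows called, 6401, became 3751 with DESeq2, 2591 with the 30-count minimum, 604 with own inputs, and 2041 to 5781 with a library left out. For NuMA over input, the 2 genes called higher became 0 with DESeq2, total-count or far-signal scaling, 1 without a count filter, with the 30-count minimum or with library sizes over tested windows, and 0 to 2 with a library left out. IER3 was called lower with total-count scaling, without a filter, with the 30-count minimum, with library sizes over tested windows and without the IgG input, so that genes called lower were 1 there, against 0, and 0 to 1 with a library left out. Windows called, 5005, became 2291 with DESeq2, 2545 with far-signal scaling, 3179 with own inputs and 2321 to 5165 with a library left out. For IgG over input, the 52 windows called became 0 with DESeq2, total-count scaling or own inputs, 828 with far-signal scaling, 96 with the 30-count minimum, 295 with the replicate block and 0 to 397 with a library left out.

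Signs turned as follows. NuMA over IgG: TRIB2 -0.37 and MCL1 -0.15 with the 30-count minimum, IER3 1.0 with far-signal scaling. NuMA over input: MCL1 -0.33 and ZFP36 -0.32 with total-count scaling, -0.05 and -0.09 without a filter, -0.19 and -0.22 with the 30-count minimum, -0.07 and -0.11 with library sizes over tested windows. MCL1 was -0.13 without NuMA replicate 1 and -0.05 without the IgG input. ZFP36 was -0.32 with the replicate block, -0.04 with own inputs, -0.02 without overlapping windows, -0.41 without NuMA replicate 2 and -0.28 without the IgG input. IgG over input: TRIB2 -0.02 with total-count scaling, -0.76 with far-signal scaling, -0.04 with the replicate block, -0.02 without IgG replicate 2 and -0.18 without the IgG input, BTG2 0.05 with the replicate block and 0.37 without IgG replicate 2, and RHOB 0.23 without it. With a library left out, the ranges were -0.13 to 0.25 (MCL1) and -0.41 to 0.38 (ZFP36) for NuMA over input, and -0.18 to 0.28 (TRIB2), -0.84 to 0.37 (BTG2) and -1.31 to 0.23 (RHOB) for IgG over input. The cause was not tested.

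Same-numbered ChIP libraries correlated at 0.182 in their deviations over 15727 windows, but with 2 pairs the numbers are not shown to pair them. The replicate block left 2 genes called higher over IgG and 2 over input. With 10 to 44 counts per gene in the IgG libraries, differences are often not detectable at this depth, and a gene not called is not shown to be unchanged.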

Other observations

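The FLOT1 window beside IER3 had 36.1 and 76.8 CPM in NuMA ChIP, 53.6 and 38.2 CPM in IgG ChIP, and 87.7 and 93.5 CPM in the NuMA and IgG inputs, so its NuMA libraries differed from each other more than those of IER3 (31.5 and 33.1 CPM).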
